A study of Mus musculus with 4 samples.

Results

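The podocyte slit diaphragm and actin skeleton were followed through 9 genes, of 19609 gene rows analysed, across 23 clusters of mouse kidney nuclei and 4 mice. The genes were Nphs1, Magi2, Ptpro, Podxl, Wt1, Synpo, Cd2ap, Actn4 and Myh9. They were chosen from their averages in this same table, as genes of the podocyte cluster, with Cd2ap and Myh9 singled out for the injured tubule. Their levels in podocytes and in the injured clusters are therefore a description and were given no test.

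Podocytes are the epithelial cells that wrap the glomerular capillaries with interlocking foot processes, bridged by a thin cell junction called the slit diaphragm. Nephrin, a transmembrane adhesion protein of that junction, is tied through adaptor proteins to actin filaments, which hold the foot processes in shape. Inherited defects in several of these genes cause protein to leak into the urine. Aristolochic acid I (AAI) is a plant toxin that damages DNA, mainly in the proximal tubule.

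Each condition was 1 male mouse on a mixed strain background, and the tissue was kidney cortex. The control genotype, TRE-hKLF6, carried the human KLF6 transgene without a driver. The hKLF6OE genotype, CAG-rtTA,TRE-hKLF6, switched that transgene on in all tissues through a CMV-chicken beta-actin promoter and doxycycline. Per the methods of the study, both genotypes ate doxycycline for a week before injury, so the diet was shared by all 4 mice. In each genotype, 1 mouse was injected once with AAI at 2 mg/kg and killed 24 hours later, and the other had no AAI. Mouse age was not given in the sources used here. A value below is the mean normalized expression over the nuclei of 1 cluster in 1 mouse, on a linear scale on which all genes of a cluster and mouse sum to 10000. Unless said otherwise, values are given in the order control, control with AAI, hKLF6OE, hKLF6OE with AAI. The table holds no numbers of nuclei or reads, so no counting error could be given, and with 1 mouse per condition a difference has no replicate check.

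Cluster names were checked against marker genes. In podocytes, 10 of 12 podocyte markers had their highest 4-mouse mean, and the exceptions were Robo2, highest in LH-AL-3, and Pla2r1, at 0 to 0.0338 in podocytes. The sum of 6 endothelial markers in podocytes was 0.447 to 1.06, that of 6 mesangial markers was 0.0457 to 0.425 and that of 7 proximal tubule markers was 14.5 to 25.5. The mouse Klf6 row, which is not the human transgene, stood in podocytes at 0.754, 1.83, 0.216 and 0.974. Expression of the human transgene was not analysed here. The share of genes listed at 0, which varies with the nuclei and reads behind a column, was 34.6% to 46.1% in podocytes. It was 22.5% and 22.2% in InjuredPT-A with AAI but 62.6% and 40.8% without AAI, so the injured clusters of the mice without AAI rest on sparser averages. Likewise, the cluster LH-DL had 42.5% to 60.7% of genes at 0.

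Promoter windows, the 250 bases before a RefSeq transcript start in GRCm38.p6, were held for 6 of the 9 genes. Those of 3 genes are shown, Myh9 and Actn4 because both were higher in InjuredPT-A, and Ptpro because it was near 0 there. They are written 5′ to 3′ on the strand of the gene, without bases that lie inside the GENCODE gene. Capitals mark matches, on either strand, to the AP-1 site TGANTCA, the GC box GGGCGG, the CACCC box CACCC or the WT1 site GNGTGGGCG, and adjoining or overlapping matches run together. KLF6 and related factors bind GC-rich and CACCC elements. The windows were Myh9 at chr15:77842176-77842425 (minus strand), Actn4 at chr7:28962341-28962582 (minus strand) and Ptpro at chr6:137252049-137252298 (plus strand).
Myh9 promoter: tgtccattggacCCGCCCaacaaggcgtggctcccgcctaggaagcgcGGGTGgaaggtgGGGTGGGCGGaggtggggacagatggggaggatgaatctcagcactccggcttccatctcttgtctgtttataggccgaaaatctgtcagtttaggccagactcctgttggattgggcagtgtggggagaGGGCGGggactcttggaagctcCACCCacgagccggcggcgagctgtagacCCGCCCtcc
Actn4 promoter: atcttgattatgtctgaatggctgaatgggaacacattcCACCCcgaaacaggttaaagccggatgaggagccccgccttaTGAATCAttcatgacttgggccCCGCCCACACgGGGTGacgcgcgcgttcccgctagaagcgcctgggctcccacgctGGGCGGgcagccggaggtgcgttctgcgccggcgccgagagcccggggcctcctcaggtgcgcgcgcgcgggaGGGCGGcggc
Ptpro promoter: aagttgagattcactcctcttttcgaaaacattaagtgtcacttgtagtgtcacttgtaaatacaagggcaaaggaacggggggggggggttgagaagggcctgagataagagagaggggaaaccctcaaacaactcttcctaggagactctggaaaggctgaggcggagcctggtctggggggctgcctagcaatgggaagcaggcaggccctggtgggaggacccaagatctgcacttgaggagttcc
The Myh9 window held 4 GC boxes, 3 CACCC boxes and 1 WT1 match, which overlapped a CACCC box and a GC box. The Actn4 window held 3 GC boxes, 2 CACCC boxes, 1 AP-1 site and 1 WT1 match, the last overlapping a GC box. None of these motifs, nor the CArG box or the p53 site searched by name, was in the Ptpro window. Over 32851 promoter windows, 32.7% held a GC box, 52.0% a CACCC box, 6.75% an AP-1 site, 2.57% a WT1 match, 1.47% a CArG box and 0.00913% a p53 site. The Cd2ap window held 3 CACCC boxes and none of the other motifs, and it is not shown because 241 of its 250 bases lie inside the GENCODE gene. Among the other windows not shown, that of Nphs1, also near 0 in InjuredPT-A, held 1 CACCC box. For Magi2, 1 window held 2 CACCC boxes and another 1 GC box. All 250 bases of the Nphs1 window, and of the Magi2 window with the GC box, lie inside the GENCODE gene. These are letter matches only, the shown genes were picked by their levels, and a link between motifs and levels was not tested.

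Across clusters, 8 of the 9 genes were highest in podocytes in all 4 mice, the exception being Myh9. Podocytes were first in all 4 mice for 2.70% of the 7246 genes that reached a value of at least 0.5 in some cluster of every mouse, and the choice of genes fixed most of this count. The genes fell into a restricted group, Nphs1, Ptpro, Synpo, Podxl, Wt1 and Magi2, and a broad group, Cd2ap, Actn4 and Myh9.

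**Figure D1:**
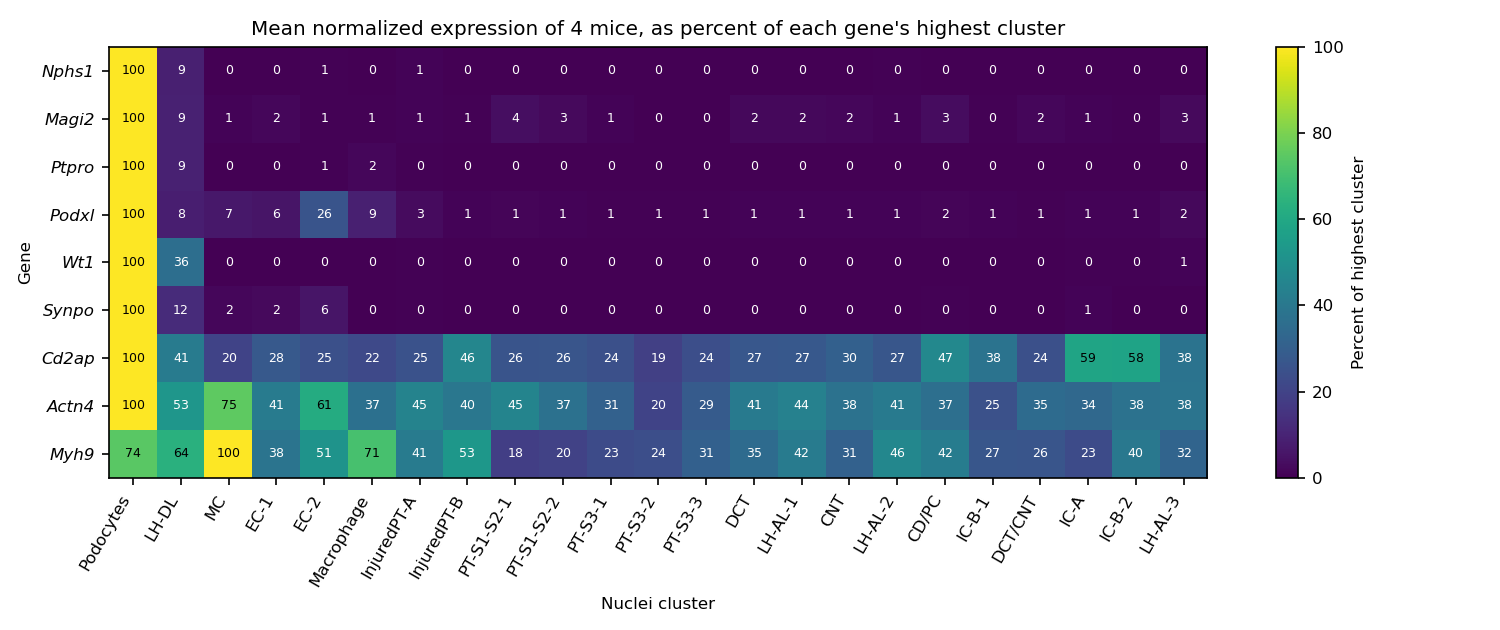
Heat map of the 9 genes (rows) in 23 clusters (columns), colored and labelled by the mean normalized expression of 4 mice as a percent of the gene's highest cluster. The upper 6 genes are dark outside podocytes, LH-DL and EC-2, while Cd2ap, Actn4 and Myh9 keep intermediate values in every cluster and Myh9 peaks in MC.

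Among slit diaphragm components, Nphs1 encodes nephrin. Its podocyte level was 19.6, 16.6, 17.1 and 20.2, which was 6.22-fold to 67.5-fold above the next cluster of the same mouse. Outside podocytes and LH-DL, the highest 4-mouse mean of Nphs1 was 0.195, in InjuredPT-A. Magi2 encodes a membrane scaffold that binds nephrin, and its podocyte level was 619, 804, 480 and 565, or 7.16-fold to 20.2-fold above the next cluster. Unlike Nphs1, Magi2 was present in every cluster, and within the normal proximal tubule it had a segment pattern. In the PT-S1-S2 clusters Magi2 lay between 14.5 and 26.5, and in the 3 PT-S3 clusters between 0.997 and 6.31, with no overlap over 4 mice. In GENCODE M21 on GRCm38, Nphs1 lies at chr7:30458315-30487223, Ptpro at chr6:137252319-137463233, Podxl at chr6:31519488-31563981, Wt1 at chr2:105126529-105173616, Cd2ap at chr17:42792951-42876665, Actn4 at chr7:28893248-28962340 and Myh9 at chr15:77760587-77842175. The Magi2 gene, at chr5:19227036-20704792, spans 1477757 bases, against 28909 to 210915 bases for the other 8 genes. Nuclear libraries count intronic reads under a pre-mRNA reference, so a level is not per length and levels of different genes were not compared.

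At the apical membrane, Ptpro encodes a receptor tyrosine phosphatase known as GLEPP1. Its podocyte level was 34.6, 44.1, 27.6 and 25.0, or 6.44-fold to 80.9-fold above the next cluster. Podxl encodes podocalyxin, the charged sialomucin of the foot process surface, which endothelial cells also carry. Podxl stood at 22.2, 24.6, 26.9 and 22.9 in podocytes and at 6.92, 6.12, 6.34 and 5.73 in the endothelial cluster EC-2, which was second in all 4 mice. Neither range overlapped that of the cluster below it. The other cluster named as endothelial, EC-1, had a Podxl level of 1.09 to 1.71. For each of 6 endothelial markers EC-2 had the highest 4-mouse mean and macrophages the second highest, so EC-1 lay below both.

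Wt1 encodes a zinc finger transcription factor needed for podocyte identity. In podocytes it was the steadiest of the restricted genes, at 13.09, 11.43, 12.62 and 11.41. Synpo encodes synaptopodin, an actin-associated protein of the foot process, and its podocyte level varied more, at 19.8, 13.5, 15.4 and 22.2. Synpo was also found in EC-2, at 0.709 to 1.28. Elsewhere, apart from LH-DL and EC-2, the highest 4-mouse mean was 0.118 for Wt1 and 0.422 for Synpo.

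The broad group is part of the general actin skeleton. Cd2ap encodes an adaptor that links nephrin to actin and to endocytosis. Its podocyte level was 7.14, 6.88, 4.61 and 6.58, only 1.26-fold to 1.93-fold above the next cluster, which was an intercalated cell cluster, IC-A or IC-B-2, in each mouse. IC-A held Cd2ap at 2.84 to 5.24, a range that overlapped the podocyte range, and the principal cell cluster CD/PC held it at 2.18 to 3.46. Actn4 encodes alpha-actinin-4, an actin crosslinker. It stood at 5.56, 3.44, 3.53 and 4.27 in podocytes and at 4.24, 2.45, 3.41 and 2.51 in mesangial cells (MC), so the podocyte lead over the next cluster, MC or LH-DL, was 1.03-fold to 1.54-fold. Myh9 encodes the heavy chain of nonmuscle myosin IIA, the motor that pulls on actin. Its podocyte level was 3.44, 4.02, 3.50 and 3.50, and MC stood above podocytes in 3 mice, at 5.61, 7.31, 2.88 and 3.62 in the 4. The macrophage cluster had a Myh9 level of 2.67 to 5.01, overlapping both.

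Close relatives of the broad genes were not highest in podocytes. Myh10, another nonmuscle myosin heavy chain, had a podocyte mean of 0.0290 and was highest in CD/PC at 2.33. Actn1, the other nonmuscle actinin, had a podocyte mean of 0.652 and was highest in LH-DL at 3.07. Sh3kbp1, the paralog of Cd2ap, had a podocyte mean of 0.261 and was highest in macrophages at 2.68. Magi1 was lowest of 23 clusters in podocytes, where its mean was 1.85, and highest in IC-A at 23.9, the reverse place to Magi2. Across all 18 measured relatives of the 9 genes, 1 was highest in podocytes, Kirrel, a nephrin-like adhesion protein.

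In the wider pathway, 7 of 17 measured slit diaphragm genes had their highest 4-mouse mean in podocytes, as did 4.67% of all 19609 genes. Among the 7 were the phospholipase Plce1 at a mean of 19.8 and the junction protein Tjp1 at 9.45. Of 35 actin and focal adhesion regulators, 6 were highest there, including the myosin Myo1e at 13.9, the adhesion adaptor Parva at 9.50 and the formin Inf2 at 1.60. Of 10 measured podocyte transcription factors, 5 were, among them Lmx1b at 3.30 and Tcf21 at 1.67.

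Genes most like each member were sought by Pearson's r of log2(value + 1) over all 92 columns of cluster and mouse, among 11444 genes. The columns share 4 mice and differ in depth, and r is given as a description. Nphs1 was closest to Myom2 (r = 0.988), Sema3e (0.986) and Gm29266 (0.982). Wt1 was closest to Wt1os (0.987), its neighbour on the opposite strand. Wt1os has a span of 49973 bases ending at chromosome 2 position 105126510, just before the Wt1 start at 105126529, so the annotated spans do not overlap. Whether counting used strand was not given in the sources used here, and whether those 2 rows share reads was not tested. Plce1 (0.965) and Ptchd4 (0.963) came next. Ptpro and Magi2 were each closest to Nphs1, at 0.981 and 0.814. For Podxl, the nearest gene was St6galnac3 (0.965), and for Synpo it was Sema3g (0.969).

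The broad genes had weaker neighbours. Cd2ap was closest to Myo1e (0.773), Plagl1 (0.734) and Arhgap28 (0.703). Actn4 was closest to Mrc2 (0.762), Arhgap23 (0.728) and Colec12 (0.724), and all 6 of these neighbours peaked in podocytes. By contrast, Myh9 was closest to Nfkb1 (0.725), Itgb1 (0.712) and Axl (0.697), which peaked in macrophages or MC. Between the members themselves, r was 0.241 for Cd2ap with Myh9, 0.325 for Cd2ap with Actn4 and 0.577 for Actn4 with Myh9.

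A cluster named as descending limb, LH-DL, also held podocyte genes. Wt1 reached 7.05, 3.87, 0.657 and 6.01 in LH-DL, which was 53.9%, 33.9%, 5.20% and 52.7% of the podocyte level of the same mouse. The mouse with hKLF6OE alone stood apart below the other 3. Nphs1 in LH-DL was 0.763, 2.67, 0 and 3.00, or 3.89%, 16.1%, 0% and 14.9% of the podocyte level, and Magi2 was 32.6, 112, 2.76 and 78.9. Ptpro followed at 1.62, 6.84, 0.0987 and 3.25. In each of the 3 other mice the share of the podocyte level was higher for Wt1 than for Nphs1, Magi2, Ptpro, Podxl and Synpo.

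**Figure D2:**
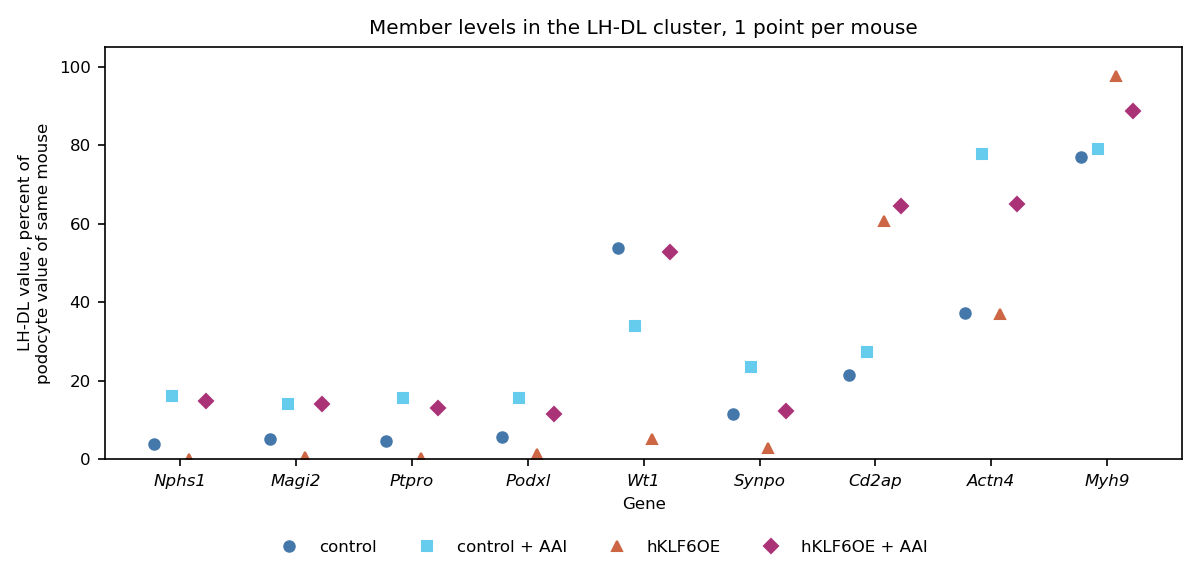
Value in the LH-DL cluster as a percent of the podocyte value of the same mouse (vertical axis) for the 9 genes, with 1 point per mouse. Wt1 lies at 33.9% to 53.9% in 3 mice and 5.20% in the hKLF6OE mouse, above Nphs1, Magi2 and Ptpro in every mouse.

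Markers of other cells were also present in LH-DL. The sum of 3 parietal epithelial markers (Cldn1, Ncam1, Pax8) in LH-DL was 14.5, 12.5, 9.43 and 17.5, against 1.25 to 2.52 in podocytes, although Cldn1 was at 0 in 3 of the 4 mice. Ncam1 in LH-DL was 8.61, 6.70, 2.36 and 10.97, lowest in the hKLF6OE mouse, as were the podocyte genes other than Cd2ap and Myh9, whereas Pax8 was 5.85, 5.82, 7.07 and 5.81, highest in that mouse. The sum of 3 descending limb markers in LH-DL was 6.29, 9.19, 10.3 and 5.33, also highest there, and of the 3 Slc14a2 was at 0 in the control and the hKLF6OE mouse with AAI. The part of these cells, of stray podocyte RNA and of mixed nuclei in the LH-DL values was not tested. Because of this, the AAI and genotype differences within LH-DL are not described gene by gene, although counts of clusters with AAI include it.

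Each injured cluster of an AAI-treated mouse was set against that mouse's own normal proximal tubule, taken as the plain average of its 5 normal clusters. A difference is in log2(value + 1), and a gene was counted when its larger value was at least 0.5 and its difference at least 0.2, in the same direction, in both mice. With 1 mouse per condition this is a count, not a test. The paired values below are for the control mouse with AAI, then the hKLF6OE mouse with AAI.

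Myh9 was higher in both injured clusters, Cd2ap in InjuredPT-B, and Actn4 in InjuredPT-A. The Myh9 level in InjuredPT-A was 3.68 and 2.31, against normal means of 1.15 and 1.23, a difference of 1.12 and 0.57 in log2(value + 1). In InjuredPT-B it was 3.43 and 4.56, a difference of 1.04 and 1.32, and the second value was the highest of 23 clusters in that mouse. In both clusters and both mice Myh9 lay above each of the 5 normal clusters, whose levels were 0.840 to 1.87. In the mice without AAI, Myh9 in the injured clusters was 0.912 to 1.16, and the 5 normal clusters of those mice held it at 0.815 to 1.35.

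Cd2ap in InjuredPT-B was 4.15 and 4.82, or 2.51-fold and 2.50-fold the normal means of 1.65 and 1.93, a difference of 0.96 and 0.99 in log2(value + 1). These values were 60.3% and 73.3% of the podocyte level and ranked 3 of 23 clusters in both mice. In InjuredPT-A, Cd2ap was 1.69 and 1.71, a difference of 0.02 and -0.11, inside the range of the 5 normal clusters of each mouse. Whether Cd2ap was counted in InjuredPT-A depended on the reference. Against the normal tubule of the mouse of the same genotype without AAI, where Cd2ap was lower, the differences were 0.28 and 0.27 and it was counted as higher. Within InjuredPT-A, Cd2ap without AAI was 1.06 and 1.93, so the AAI difference was 0.38 in control mice and -0.11 in hKLF6OE. Without AAI, Cd2ap in InjuredPT-B was 1.01 and 1.57.

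Actn4 was higher by a smaller margin. In InjuredPT-A it was 2.14 and 2.25 against 1.42 and 1.42, a difference of 0.37 and 0.43 in log2(value + 1), above all 5 normal clusters in both mice. The control mouse without AAI had 2.01 in that cluster, so its level there differed little with AAI, while the hKLF6OE mouse without AAI had 1.13. In InjuredPT-B Actn4 was 1.63 and 2.21, a difference of 0.12 and 0.41, which did not pass in both mice. When differences were centred on the median of all genes, 0.19 and 0.15 in InjuredPT-A, Actn4 was no longer counted there.

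Magi2 went the other way against the 5-cluster mean. It was 2.84 and 3.88 in InjuredPT-A and 3.09 and 4.53 in InjuredPT-B, against 9.77 and 8.69, a difference of -1.49 and -0.99 and of -1.40 and -0.81 in log2(value + 1). This direction rested on the PT-S1-S2 clusters in the mean. Against the 3 PT-S3 clusters alone, the differences were 0.32 and 0.28 in InjuredPT-A and 0.42 and 0.46 in InjuredPT-B, so that Magi2 was higher. All 4 injured values lay within the range of the normal clusters.

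**Figure D3:**
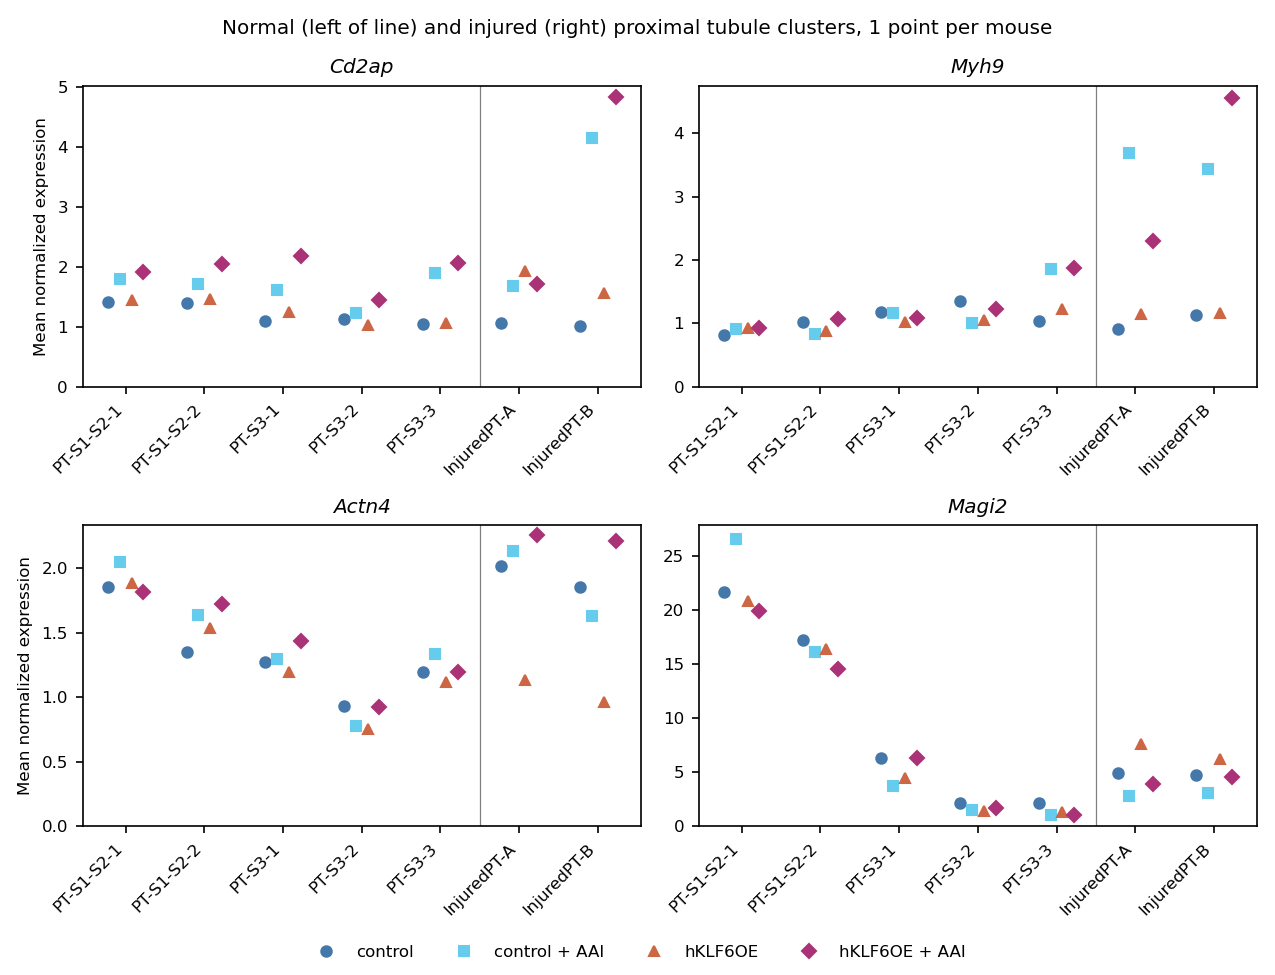
Mean normalized expression (vertical axis, from 0) of Cd2ap, Myh9, Actn4 and Magi2 in 5 normal and 2 injured proximal tubule clusters, with 1 point per mouse. With AAI, Cd2ap stands at 4.15 and 4.82 in InjuredPT-B but at 1.69 and 1.71 in InjuredPT-A, Myh9 is high in both, and Magi2 separates the PT-S1-S2 from the PT-S3 clusters.

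The other 5 genes had low values in the injured clusters and did not pass the minimum in both mice. With AAI, Nphs1, Ptpro, Wt1 and Synpo were at 0 to 0.145 in both injured clusters, and Podxl was 0.438 and 0.797 in InjuredPT-A and 0.183 and 0.211 in InjuredPT-B. The normal means of Podxl were 0.219 and 0.230, and in InjuredPT-A it lay above all 5 normal clusters in both mice, by 0.24 and 0.55 in log2(value + 1), so that with no minimum it was counted as higher there. Thus 4 of 9 genes passed in each cluster. In InjuredPT-A, 2 were higher and 1 lower, and over the 5008 genes that passed these shares were 43.3% and 27.0%. For InjuredPT-B the counts were again 2 and 1, and over 4148 genes the shares were 23.4% and 13.1%. A gene counted as higher was thus common in InjuredPT-A.

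Of the relatives, Myh10, Myh14, Actn1 and Sh3kbp1 did not pass the minimum in both mice in either injured cluster, so they could not be counted. Myh10 was 0.260 and 0.174 in InjuredPT-A and 0.351 and 0.387 in InjuredPT-B, the latter 1.56-fold and 2.15-fold its normal mean. Sh3kbp1 was at most 0.0963. Magi1 was lower in both clusters, with differences of -1.27 and -1.24 in InjuredPT-A and -0.52 and -0.49 in InjuredPT-B, in log2(value + 1). Ptprj, a relative of Ptpro, was higher in InjuredPT-B at 6.54 and 7.93 against 3.58 and 4.02.

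Of 35 actin and focal adhesion regulators, 12 were higher and 5 lower among the 27 that passed in InjuredPT-A, or 44.4% and 18.5%, beside 43.3% and 27.0% of all genes, so the share higher was that of the background. Among the 23 that passed in InjuredPT-B, 10 (43.5%) were higher and 0 lower, beside 23.4% and 13.1% of all genes. In InjuredPT-A the higher genes were led by Arpc2, a subunit of the branching complex of actin (0.92 in log2(value + 1) in the mouse with the smaller difference), the integrin chain Itgb1 (0.88) and the small GTPases Cdc42 (0.87) and Rhoa (0.66), and the lower by Arhgap24 (-0.90) and Parva (-0.59). In InjuredPT-B they were led by Vcl (vinculin, 0.60), the kinase Rock2 (0.43), Itgb1 (0.43) and Cdc42 (0.41). The median difference over the list was 0.24 and 0.13 in InjuredPT-A, beside 0.19 and 0.15 over all genes, and 0.18 and 0.26 in InjuredPT-B, beside 0.11 and 0.10.

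Of 17 slit diaphragm genes, 8 passed in each injured cluster. In InjuredPT-A, Ctnnb1 (beta-catenin, 0.82), Tjp1 (0.24) and Fat1 (0.23) were higher, and the polarity genes Pard3 (-0.89) and Dlg1 (-0.70) and the adaptor Nck2 (-0.29) were lower, each by the smaller of the differences of the 2 mice. In InjuredPT-B, the giant cadherin Fat1 (0.59) and Ctnnb1 (0.23) were higher and 0 were lower. Their medians were 0.19 and -0.02 in InjuredPT-A and 0.14 and 0.38 in InjuredPT-B. Of 30 injury-related cytoskeleton genes, 9 of 12 that passed were higher in InjuredPT-A and 4 of 8 in InjuredPT-B, with 0 lower in both. Tpm3 (tropomyosin) had a smaller difference of 0.77 and 0.71. The background shares counted as higher were 43.3% and 23.4% for these clusters, and those counted as lower 27.0% and 13.1%. A gene below 0.5 in normal tubule could pass only through its injured value, so it could not be counted as lower. Tubb6, Tuba1c and Lmna, all counted as higher in InjuredPT-A, were such genes, with normal means of 0.0295 to 0.404. Of podocyte transcription factors, 3 passed in InjuredPT-A and all 3 were lower, Nfia (-1.91), Tead1 (-0.69) and Zhx2 (-0.51), genes that the normal tubule also carries. Nfia (-0.56) was also lower in InjuredPT-B, where 3 passed.

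Markers of other cells were read beside these values. The sum of 12 podocyte markers with AAI was 3.88 and 5.19 in InjuredPT-A and 6.37 and 5.49 in InjuredPT-B, against 8.38 and 8.88 in normal proximal tubule. Col4a3 made up part of each sum, the largest part in normal tubule and the smallest in InjuredPT-A. It was 0.884 and 1.98 in InjuredPT-A and 3.23 and 2.90 in InjuredPT-B, against 5.36 and 5.78 in normal tubule. Mesangial markers summed to 0.240 and 0.374 in InjuredPT-A and 0.153 and 0.125 in InjuredPT-B, against 7.92 and 8.65 in MC, where Myh9 was high. Macrophage markers summed to 0.131 to 0.282 in the injured clusters. Markers of later tubule segments were higher in InjuredPT-A. The sum of 2 loop of Henle markers was 10.3 and 13.8 there, against 5.69 and 5.21 in normal tubule, and both genes were counted as higher. The distal convoluted marker Slc12a3 was higher by 0.66 and 0.79 in log2(value + 1), and the connecting tubule markers Slc8a1 and Calb1 by 0.74 and 0.93 and by 0.42 and 0.61. In InjuredPT-B, Slc12a1 (0.21 and 0.53) and Slc8a1 (0.35 and 0.30) were counted as higher. The part of these cells in the values of the 9 genes was not tested. The macrophage sums in normal tubule were 0.377 and 0.349 and the mesangial sums 0.110 and 0.122. Proximal tubule markers were lower in both injured clusters for 7 of 7 genes.

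The effect of AAI was next read within each cell type, as AAI minus no AAI in the control genotype, then in hKLF6OE. In podocytes, Magi2 was higher with AAI, 804 against 619 and 565 against 480, a difference of 0.38 and 0.23 in log2(value + 1). It was 1 of 9 genes counted as higher and 0 were lower, where 9.60% of 3573 genes were higher and 9.43% lower. Wt1 was the reverse in sign, by -0.18 and -0.13, below the threshold. The median over the 9 genes was -0.05 and 0.22.

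**Figure D4:**
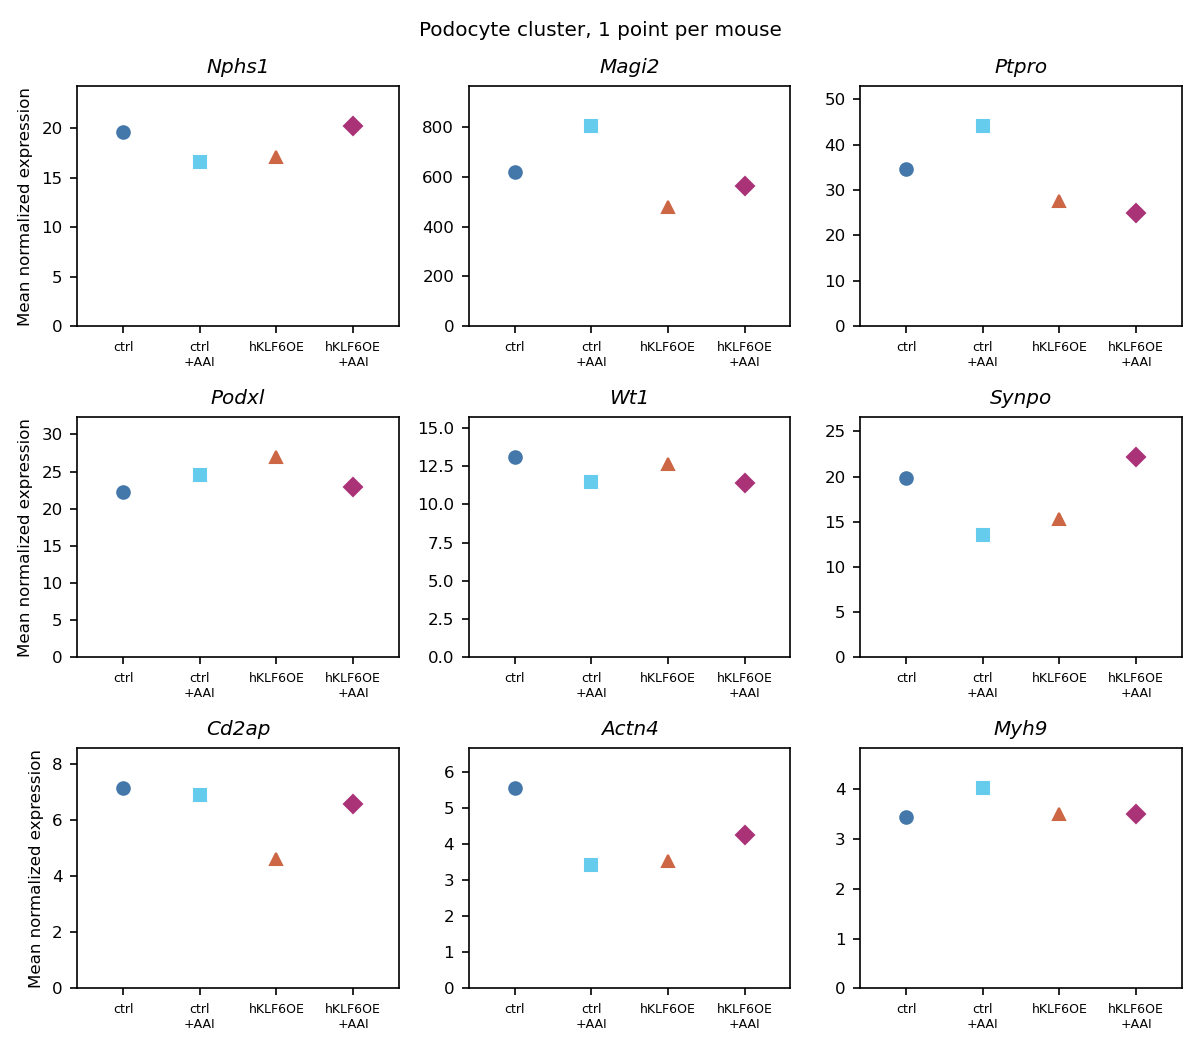
Mean normalized expression in the podocyte cluster (vertical axis, from 0) of each of the 9 genes, with 1 point for each of the 4 mice. Magi2 is higher with AAI in both genotypes, Magi2 and Ptpro are lower in hKLF6OE with and without AAI, and Synpo and Actn4 go opposite ways with AAI in the 2 genotypes.

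In podocytes, 3 genes differed with AAI by at least 0.2 in opposite directions in the 2 genotypes, Synpo by -0.52 and 0.50, Actn4 by -0.56 and 0.22 and Nphs1 by -0.23 and 0.23 in log2(value + 1). Ptpro (0.34 and -0.14), Podxl (0.14 and -0.23) and Cd2ap (-0.05 and 0.43) also had opposite signs, but with 1 of the differences below 0.2. The difference between genotypes was not tested. In the wider slit diaphragm list, 14 genes passed. Tjp1 (8.58 to 11.26 and 7.47 to 10.5) was among those higher with AAI, and 0 were lower. Of 28 actin regulators that passed, 4 were higher, led by Rock2 (0.61), and 2 lower, Slc9a3r1 (-0.38) and Pdlim2 (-0.26). Of 8 transcription factors that passed, 3 were higher, Foxd1 (0.36), Nfia (0.36) and Foxc1 (0.22), and of 12 injury-related cytoskeleton genes 0 were counted. Proximal tubule markers in podocytes summed to 22.7 and 25.5 without AAI and 20.5 and 14.5 with it, and 3 of 7 were counted as lower and 1 as higher, Cyp7b1, by 0.40 and 0.90. Whether this bears on the podocyte values was not tested.

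Over all clusters, Cd2ap was higher with AAI in both genotypes in 11 of 23 and lower in 0. Its difference was above 0 in both genotypes in 18 clusters and below 0 in both in 1, the macrophages. Of 1782 genes that passed in all 23 clusters, 2.97% were higher in 11 or more, and the median gene was higher in 2 and lower in 1. The mice and their libraries are shared by all the clusters, so 11 clusters are not 11 independent observations. The Cd2ap difference was greatest in InjuredPT-B, at 1.35 and 1.18 in log2(value + 1), where the side without AAI rests on sparse averages. It was 0.51 and 0.57 in PT-S3-3. In clusters not named as tubule, it was 0.35 and 0.43 in EC-1, 0.30 and 0.21 in EC-2 and 0.21 and 0.86 in MC.

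**Figure D5:**
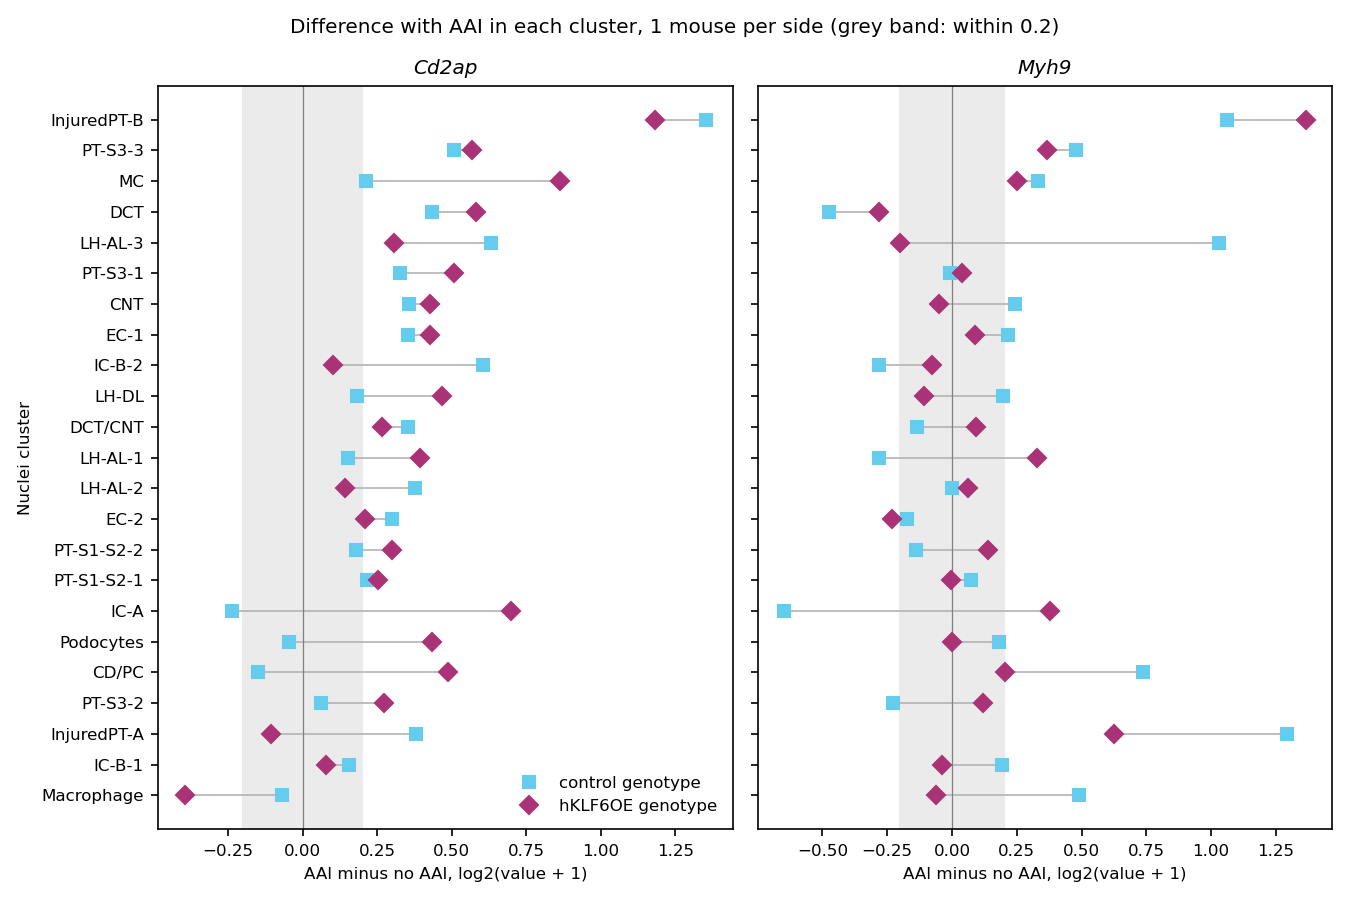
Difference between the AAI and the untreated mouse in log2(value + 1) (horizontal axis) for Cd2ap and Myh9 in 23 clusters, with 1 point per genotype and a grey band within 0.2 of 0. Cd2ap lies above 0 in both genotypes in 18 clusters, whereas Myh9 does so in 7.

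Averaged over the 5 normal proximal tubule clusters, Cd2ap was 1.21 without and 1.65 with AAI in control mice and 1.25 and 1.93 in hKLF6OE, a difference of 0.26 and 0.38. It was the only one of the 9 genes counted there, where 4 of 9 passed and 7.66% of 3892 genes were higher and 5.83% lower. Myh9 differed by 0.05 and 0.14, Actn4 by 0.06 and 0.07 and Magi2 by -0.01 and -0.03, each below the threshold. In the same tubule cells Fat1 (0.67), Rock2 (0.38) and Myo1e (0.22) were counted as higher, and Nfia (0.33) as well.

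Other genes were counted with AAI in fewer clusters. Myh9 was higher in 5, InjuredPT-A, InjuredPT-B, PT-S3-3, MC and CD/PC, and lower in 1, DCT, with differences of -0.47 and -0.28. Actn4 was higher in 3, IC-B-2, LH-AL-3 and LH-DL. It was lower in 1, the MC, where it was 4.24 and 3.41 without AAI and 2.45 and 2.51 with it. Magi2 was higher in 3, podocytes, EC-2 and LH-DL, and lower in 3, LH-AL-3 and both injured clusters. In the injured clusters, the side without AAI rests on sparse averages. Podxl, which passed the minimum in 8 clusters, was higher in 3, LH-DL, MC by 0.44 and 0.27 and macrophages by 0.54 and 0.44. Endothelial markers were present in the last 2. In MC the sum of 6 was 5.96 without and 12.5 with AAI in control, and 9.53 and 9.25 in hKLF6OE. In macrophages Flt1 and Emcn had 4-mouse means of 6.68 and 5.33, second to EC-2. The part of endothelial cells in these Podxl values was not tested. Synpo was higher in EC-2 by 0.38 and 0.38.

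Genotype was read as hKLF6OE minus control, without AAI and then with AAI. In podocytes, Magi2 was lower in hKLF6OE, with differences of -0.37 and -0.51, and so was Ptpro, with -0.32 and -0.79 in log2(value + 1). These were 2 of 9 genes counted as lower and 0 as higher, where 8.12% of 3524 genes were lower and 5.93% higher. The Ptpro podocyte levels of both hKLF6OE mice, 27.6 and 25.0, lay below those of both control mice, 34.6 and 44.1, and the same held for Magi2. For Cd2ap the difference was -0.54 without AAI and -0.06 with it, and for Myh9 it was 0.02 and -0.16. The median over the 9 genes was -0.32 and -0.06 beside a median over all genes of -0.01 without AAI.

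In the slit diaphragm list, Fat1 (-0.41) and Nck2 (-0.27) were lower in hKLF6OE podocytes and 0 were higher, of 14 that passed. Of 24 actin regulators that passed, Diaph1 (0.39) and Dnm2 (0.26) were higher and Rac1 (-0.24) lower, and of 7 transcription factors Foxd1 (-0.39) was lower. Outside podocytes, Myh9 was lower in hKLF6OE in MC, 2.88 and 3.62 against 5.61 and 7.31, and in EC-2, 2.24 and 1.76 against 3.21 and 2.73. Magi2 was lower in EC-2, in IC-A and in IC-B-1 and higher in both injured clusters, where the differences were 0.54 and 0.35 in InjuredPT-A and 0.32 and 0.44 in InjuredPT-B. The first difference of each pair compares the mice without AAI, whose injured clusters rest on sparse averages. In control and hKLF6OE without AAI, 62.6% and 40.8% of genes were at 0 in InjuredPT-A and 51.3% and 55.7% in InjuredPT-B. Cd2ap was higher in IC-B-1, by 0.42 and 0.34, and lower in DCT/CNT, with differences of -0.21 and -0.29. Actn4 was counted in 0 clusters. For genotype, shares over all genes were taken only in podocytes, so the counts in other clusters have no background beside them. Since each genotype and treatment is 1 mouse, the condition and the animal cannot be told apart in any of these differences.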

How the data were processed

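Single-nucleus RNA sequencing of kidney cortex from 4 mice was used, prepared by the authors as a single technical batch. The deposited signal values were made by the authors with Cell Ranger (reads aligned to pre-mRNA of the mouse) and Seurat: normalized expression averaged over the nuclei of each cluster and mouse, on a linear scale, and each of 92 columns summed to 10000. The averaging function was not given in the sources used here, and removal of doublets was not described for these data. Of 19632 rows, 23 with date-like names were left out. Cluster names follow the order of the sheets of the marker table of the study. The genes and lists were chosen with earlier results of these data known.

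Differences were taken as log2(value + 1), with a minimum of 0.5 and a threshold of 0.2, in Python 3.11.15 with pandas 2.3.3. The counting rule was run on simulated data with set shifts and small noise. That run does not show how far mice of the same condition differ, or how often such differences pass the threshold. Named genes were the 9 members, the 3 genes most like each, relatives of the members, and at most the 4 highest and 4 lowest counted genes of each list, except that some genes of the lists are not reported here by name. No test was made with 1 mouse per condition. Gene spans came from GENCODE M21 and promoters from RefSeq. Settings varied in turn were the pseudocount (0.1), the filter (none, or a minimum of 2) and the threshold (0.5 and 1), beside other references, each mouse or pair alone, centring, and leaving out mitochondrial genes.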

Additional observations from a re-analysis of the deposited data

Results flagged for a closer look

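In podocytes, 3 genes differed with AAI by at least 0.2 in log2(value + 1) one way in the control genotype and the opposite way in hKLF6OE, and the difference between genotypes was not tested. On the log2(value + 1) scale, the change with AAI in hKLF6OE exceeded that in control mice by 1.02 for Synpo, by 0.783 for Actn4 and by 0.460 for Nphs1. Read as genotype differences with and without AAI, the same values of 1.02 for Synpo and 0.783 for Actn4 apply, since both readings use the same 4 mice.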

How the results depend on the processing

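Of 502 single-gene values over all alternatives, 437 kept their direction and side of the threshold, 55 no longer passed, 6 newly passed and 4 reversed. Many of the 437 could not change. With no filter (60 values), with a minimum of 2 (50 values) and with each mouse or pair alone, a gene's own difference stays the same by construction. The total is therefore not a measure of robustness. The 4 were Magi2 in the injured clusters against the PT-S3 clusters alone, at 0.32 and 0.28 in InjuredPT-A and 0.42 and 0.46 in InjuredPT-B. With that reference the genes counted as lower became 0 in both injured clusters and those higher in InjuredPT-B became 4. At a threshold of 0.5, 1 gene was higher in InjuredPT-A, 0 were higher or lower in podocytes with AAI or genotype, and 0 were higher with AAI in normal proximal tubule. At a threshold of 1, 0 were higher or lower in InjuredPT-A, 1 was higher and 0 lower in InjuredPT-B, and 0 were counted in podocytes or normal tubule. With the normal tubule of the mouse without AAI as reference, or with no minimum, 3 genes were higher in InjuredPT-A. Centring left 1 gene higher in InjuredPT-A, and a minimum value of 2 left 0 higher in normal tubule with AAI. In the podocytes, the control pair alone gave 2 genes higher and 3 lower with AAI and the hKLF6OE pair 5 and 1. For genotype, the pair without AAI gave 1 higher and 5 lower. The pair with AAI gave 3 higher, and Magi2 (-0.51) and Ptpro (-0.79) lower. The number of clusters with higher Cd2ap, an alternative set chosen after seeing the data, was 4 with a minimum of 2, 2 at a threshold of 0.5 and 1 at a threshold of 1, and 9 to 15 under the other alternatives. No paired analysis was possible because each condition has 1 mouse. The cause of these changes was not tested beyond their construction. Depth and numbers of nuclei were unknown, so small values have no stated precision.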
